A study of Mus musculus with 9 samples.

Results

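The comparison described here set neonatal mouse heart muscle cells kept under oxygen against the same kind of cells that went through hypoxia in the presence of recombinant serglycin. Its members are the 3 libraries labelled Control and the 3 labelled Hypoxia+rSRGN, 6 of the 9 libraries of the series, chosen by their labels alone. The other 3 libraries, labelled Hypoxia, had the hypoxic incubation without the protein and are shown beside them. All cells were primary neonatal mouse ventricular myocytes (NMVMs) of wild-type genotype, isolated from C57BL/6J pups at 1 day of age. Control cultures stayed in normoxia in complete medium with serum. Both hypoxic groups were washed, moved to DMEM without glucose and without serum, and kept for 6 h in a sealed chamber with an oxygen absorber. The effects of low oxygen, of missing glucose and of missing serum cannot be told apart in these groups. In the Hypoxia+rSRGN cultures recombinant serglycin (rSRGN) was present during the hypoxic period, at a dose and from a species that the sources used here do not give. Whether the 3 libraries of a group came from separate isolations is not stated, so p-values measure the spread between these libraries, which may be technical. Cells isolated from ventricles in this way usually include fibroblasts, endothelial cells and macrophages beside the myocytes.

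Serglycin is a small intracellular and secreted proteoglycan, whose short protein core carries many sulfated glycosaminoglycan chains. It is best known from the secretory granules of mast cells and other blood cells, where it holds proteases and cytokines, and the cell surface receptor CD44 is one of its binding partners. Ventricular myocytes live mainly from mitochondrial oxidation of fatty acids, and in low oxygen they normally turn to glycolysis, which here had no glucose in the medium to use. Protein damage calls up cytosolic chaperones through the factor HSF1, and lack of amino acids or stress in the endoplasmic reticulum raises the factor ATF4, an arrangement called the integrated stress response.

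Between 21669017 and 22781557 fragments were assigned to genes in the Control libraries, 16640239 to 20826701 in Hypoxia+rSRGN and 16583985 to 18148474 in Hypoxia. Expression is given in CPM, the count of a gene relative to the scaled size of its library, and changes as log2 fold changes with their standard error (SE) from edgeR's quasi-likelihood test. A gene is called where its Benjamini-Hochberg adjusted p is below 0.05 and its change is at least 1.5-fold. The first principal component held 88.6% of the variance between libraries and separated Control from both hypoxic groups. Mitochondrial rRNA, which carries only short tails and is mostly lost in poly(A) selection, took 0.195% to 0.239% of counts in Control and 2.27% to 2.67% in Hypoxia+rSRGN. Rn7sk, a small nuclear RNA made by RNA polymerase III and without a poly(A) tail, was likewise higher in Hypoxia+rSRGN (123, 135 and 138 CPM) than in Control (1.44, 4.33 and 3.96 CPM). These shares moved with the groups, and their part in the changes below was not tested. The gene for serglycin itself, Srgn, had 5, 14 and 10 counts in the Control libraries and 3, 19 and 6 in Hypoxia+rSRGN, too few for the test, and the added protein leaves no counts.

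In the presence of serglycin the hypoxic cultures stayed far from the normoxic control. Of 16762 genes tested, 8183 (48.8%) were called in Hypoxia+rSRGN against Control, 4036 higher (24.1%) and 4147 lower (24.7%), and 2026 of them by at least 4-fold. For another 4258 genes (25.4%) the 95% interval of the change lay inside 1.5-fold in both directions, and 4321 were neither called nor held inside that limit. The median log2 fold change over all tested genes was 0.01, so gene lists are read against a centre near 0. Hypoxia without the protein, tested against the same Control libraries, gave 8644 calls (51.6%), 4432 higher (26.4%) and 4212 lower (25.1%). The direct test of Hypoxia+rSRGN against Hypoxia gave 525 calls (3.13%), 381 higher (2.27%) and 144 lower (0.859%). When that test asked for a change significantly beyond 1.5-fold it gave 0 calls, with 358 genes at an unadjusted p under 0.05. Without Hypoxia replicate 3 it gave 321 calls.

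Genes were followed in 43 lists of pathways and complexes. In 12 lists at least 50% of the tested members were lower in Hypoxia+rSRGN than in Control, and in 17 lists at least 50% were higher. Of these lists, those farthest below Control were those of the contractile apparatus, calcium handling, the creatine shuttle, natriuretic peptide and load genes, and mitochondrial energy production. Farthest above it were the mitochondrial rRNAs, immediate early genes and the integrated stress response. In 14 lists the median lay inside the 1.5-fold limit.

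**Figure D1:**
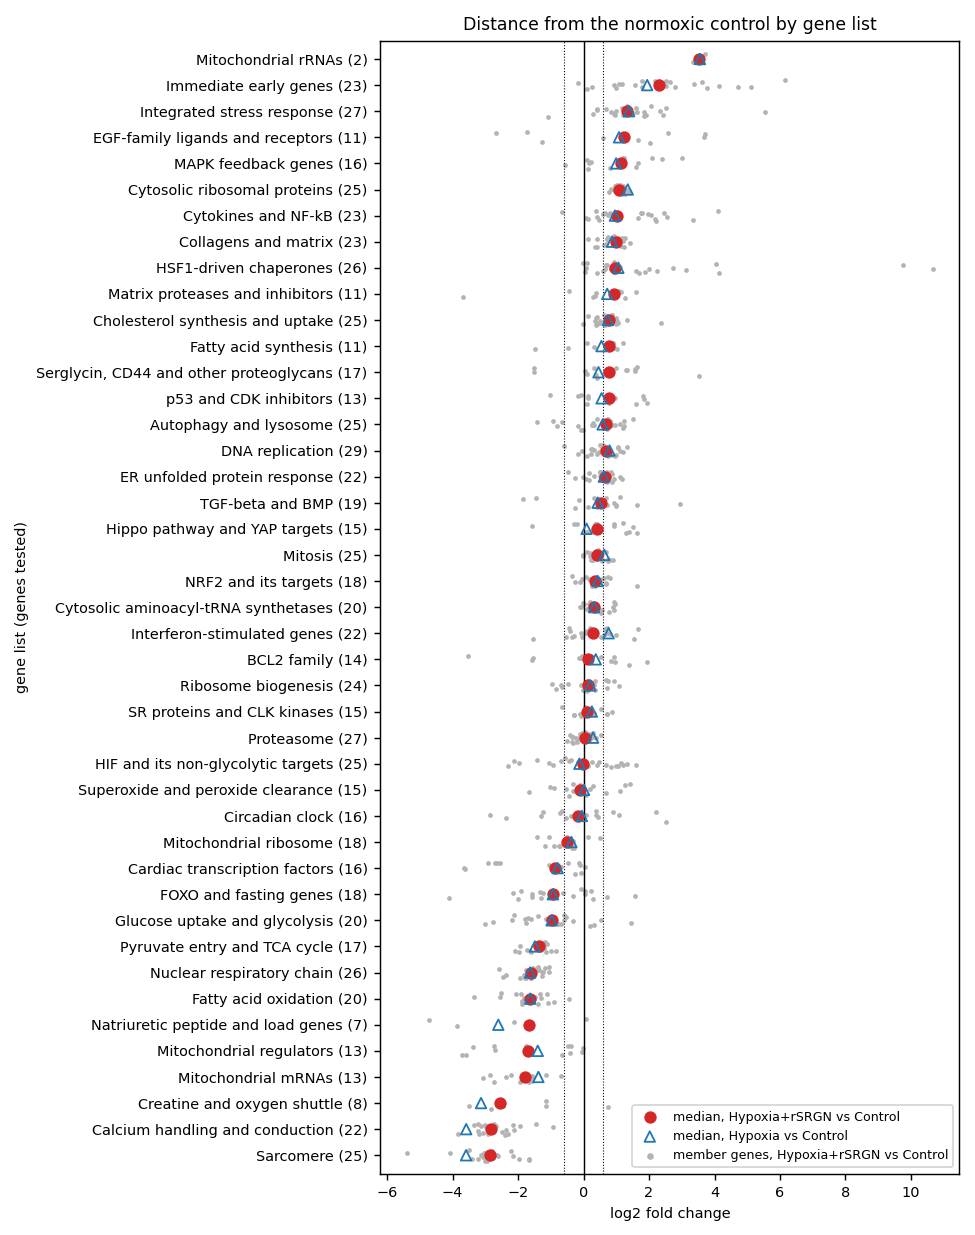
Log2 fold change against Control (x axis) for the tested members of 43 gene lists (y axis, number tested in brackets), with grey points for single genes in Hypoxia+rSRGN, red circles for list medians in Hypoxia+rSRGN and blue triangles for list medians in Hypoxia. Dotted lines mark a 1.5-fold change, and the sarcomere and calcium lists have medians of -2.87 and -2.82 in Hypoxia+rSRGN against -3.59 and -3.58 in Hypoxia.

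Among the 43 pathway lists the contractile genes had the lowest median. All 25 sarcomere genes were called lower in Hypoxia+rSRGN than in Control, against 24.7% of all genes, with log2 fold changes between -5.40 and -1.67 and a median of -2.87. Myh6, the fast alpha-myosin heavy chain of the working heart, had 14783, 18723 and 20287 CPM in Control and 2328, 2188 and 2323 CPM in Hypoxia+rSRGN. Every Hypoxia+rSRGN library of Myh6 lay below every Control library, a 7.86-fold difference (log2 fold change -2.98, SE 0.16, adjusted p = 2.0e-13). Lmod2, a leiomodin that lengthens the thin filaments, fell the most of the list. Its level was 303, 294 and 343 CPM in Control and 7.86, 7.76 and 6.60 CPM in Hypoxia+rSRGN (log2 fold change -5.40, SE 0.10, adjusted p = 2.6e-20). Myh7, the slow beta-myosin, fell by 4.07 on the log2 scale (SE 0.19), Ttn, the giant spring of the sarcomere, by 2.80 (SE 0.15), and the atrial light chains Myl7 and Myl4 fell least, by 1.68 and 1.67. The summed level of the 25 genes was 61747 to 74482 CPM in Control, 10686 to 11453 CPM in Hypoxia+rSRGN and 6028 to 8656 CPM in Hypoxia. In bulk cultures, fewer myocytes and less of these RNAs in each myocyte cannot be told apart.

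The machinery of the heartbeat followed the sarcomere. All 22 genes of calcium handling and conduction were lower than in Control, with a median of -2.82. Pln, phospholamban, the brake on the calcium pump, had 767, 615 and 648 CPM in Control and 45.7, 48.2 and 48.0 CPM in Hypoxia+rSRGN (log2 fold change -3.84, SE 0.11). Ryr2, the calcium release channel, fell by 3.02 (SE 0.16), and Atp2a2, the calcium pump of the sarcoplasmic reticulum, by 2.30 (SE 0.12). Camk2d, a calcium-dependent kinase, was the member closest to Control at -0.93. Of 16 cardiac transcription factors, 9 were lower and 0 higher. Irx4 fell by 3.64, the homeodomain protein Hopx by 3.62 and Nkx2-5 by 2.64, all with SE between 0.09 and 0.18, while Tead1 (0.03), Gata6 (-0.08), Mef2a (-0.10) and Srf (-0.13) were not called. The core factors of heart muscle were thus split, with some at a small part of their Control level and others near it.

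The load-responsive genes were lower too, 6 of 7 tested. Nppa, which encodes atrial natriuretic peptide, read 1946, 2100 and 2312 CPM in Control and 841, 706 and 596 CPM in Hypoxia+rSRGN, with no overlap (log2 fold change -1.57, SE 0.18). Xirp1, an actin-binding protein of the intercalated disc, fell by 4.71 (SE 0.13). Of the 8 genes for creatine kinases, myoglobin and related muscle enzymes, 7 were lower, such as Ckm (-2.64) and Mb, the oxygen store myoglobin (-2.83). Ckb, the creatine kinase of brain and other tissues, was the 1 member that was higher (0.73).

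Markers of the cell types in such cultures did not move together. All 10 cardiomyocyte markers were lower, with a summed level of 42293 to 52144 CPM in Control and 7052 to 7478 CPM in Hypoxia+rSRGN. Of 10 fibroblast markers 7 were higher and 0 lower, with a median of 0.63. Their sum rose from 7296 to 8513 CPM in Control to 15740 to 16068 CPM in Hypoxia+rSRGN. Col1a1, with means of 3594 CPM in Control and 8465 CPM in Hypoxia+rSRGN, held a large part of that sum. The fibroblast factor Tcf21 was not called against Control (0.15) and was lower than in Hypoxia (-0.76). Of 7 mesothelial markers 6 were higher, such as Msln, mesothelin (2.24), and Krt19, a keratin (2.45). Of 10 endothelial markers 6 were lower, among them Pecam1 (-1.11), and Flt1 was higher (0.84). Of 11 macrophage markers 9 were lower, with a median of -3.38 that became -1.51 when only genes with at least 10 counts in every library were tested. Lyz2, lysozyme, had 190.2, 192 and 198 CPM in Control and 21.6, 18.1 and 17.3 CPM in Hypoxia+rSRGN, and the complement gene C1qa and the surface marker Adgre1 were at or under 0.11 CPM in each Hypoxia+rSRGN library. Of 10 smooth muscle and pericyte markers 3 were higher (30%) and 2 lower (20%), near the shares of all genes, and of 2 Schwann cell markers tested 1 was higher and 1 lower. No neutrophil or erythroid marker had enough counts for the test. How far the makeup of the cultures entered the pathway changes was not tested.

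Genes of mitochondrial energy production were the next group that stayed low. All 26 nuclear genes of the respiratory chain were lower, with a median of -1.60 and a range of -2.57 to -1.04, a narrower span than that of the sarcomere list. The heart and muscle forms of cytochrome c oxidase fell most. Cox6a2 had 213, 237 and 248 CPM in Control and 39.5, 38.9 and 39.4 CPM in Hypoxia+rSRGN (log2 fold change -2.57, SE 0.10), and Cox7a1 fell by 2.46 (SE 0.12). Cox4i1, a subunit that most tissues use, fell less (-1.05). The regulators above them were split. Ppargc1a, the coactivator PGC-1alpha, fell by 2.72 (SE 0.11), and its partners Esrra and Esrrg by 1.77 and 3.59, while Nrf1 (-0.05) and the mitochondrial DNA polymerase Polg (-0.01) were not called. In all, 8 of 13 regulators were lower. Of 18 genes of the mitochondrial ribosome 6 were lower (33.3%, beside 24.7% of all genes), with a median of -0.52.

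RNAs made inside the mitochondria moved in opposite directions. All 13 mitochondrial mRNAs were lower, with a median of -1.78, while both rRNAs were higher. The light-strand transcript mt-Nd6, a subunit of complex I, fell most. Its level was 3330, 2812 and 2351 CPM in Control and 361, 349 and 305 CPM in Hypoxia+rSRGN (log2 fold change -3.06, SE 0.14). mt-Nd5, which overlaps it on the other strand, fell by 2.73, and mt-Cytb fell by 1.13. mt-Rnr2, the large rRNA, rose from 1947, 1628 and 2022 CPM to 20459, 18719 and 17397 CPM (log2 fold change 3.34, SE 0.10), and mt-Rnr1 by 3.71 (SE 0.10). Poly(A) selection depends on tails that can be short or missing in such RNAs, and nuclear copies of mitochondrial DNA can take some of the reads. The counting used no strand information, so reads of mt-Nd6 and of transcripts from the other strand cannot be told apart with certainty. 2 of these 13 mRNAs, mt-Co2 and mt-Atp8, were also called lower in Hypoxia+rSRGN than in Hypoxia, beside 0.859% of all genes. In both of them Hypoxia replicate 2 stood apart. mt-Atp8 had 1.02, 21.7 and 1.10 CPM in Hypoxia and 1.25, 1.20 and 1.00 CPM in Hypoxia+rSRGN, and its call against Control was lost without Control replicate 3 (adjusted p = 0.061).

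**Figure D2:**
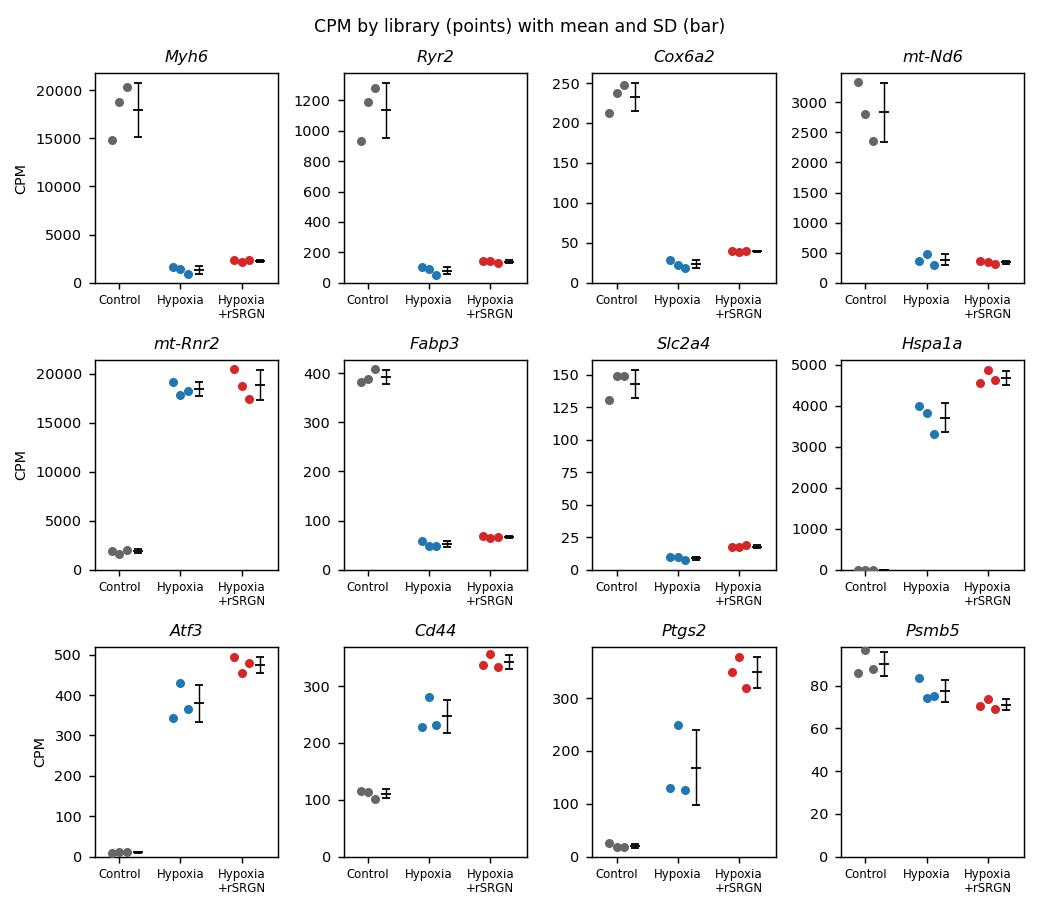
CPM after scaling (y axes, starting at 0) in each of 9 libraries (points, by group on the x axis) for 12 genes, with the mean and SD of each group as a bar beside the points. Myh6, Ryr2, Cox6a2, mt-Nd6, Fabp3 and Slc2a4 lie far below Control in both hypoxic groups, mt-Rnr2, Hspa1a, Atf3, Cd44 and Ptgs2 lie above it, and the proteasome gene Psmb5 lies close to it.

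Most genes of fuel use were lower. Of 20 genes of fatty acid uptake and oxidation 19 were lower (median -1.65), and Cpt1a, the liver form of the carnitine transferase, at -0.45 was the 1 that was not called. Cd36, the fatty acid transporter, had 199, 166 and 182 CPM in Control and 18.4, 18.5 and 17.4 CPM in Hypoxia+rSRGN (log2 fold change -3.33, SE 0.10), and Fabp3, the fatty acid carrier of heart, fell by 2.56 (SE 0.08). All 17 genes of pyruvate entry and the citric acid cycle were lower, with a median of -1.36. Of 20 genes of glucose uptake and glycolysis 14 were lower and 1 higher. Slc2a4, the insulin-responsive transporter GLUT4, read 130.1, 149 and 149 CPM in Control and 17.5, 17.2 and 18.7 CPM in Hypoxia+rSRGN (log2 fold change -3.00, SE 0.09). Ldha, lactate dehydrogenase A, fell by 1.15, and the gene that rose was Pfkfb3, which makes the activator of phosphofructokinase (1.44, SE 0.13). Of 18 genes that FOXO factors or fasting raise, 10 were lower and 1, Irs2, was higher (1.59). Trim63 and Fbxo32, the ubiquitin ligases of muscle wasting, fell by 4.10 and 2.16.

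Genes of the hypoxia factor HIF had a median near 0. Apart from the glycolysis list, 25 members were tested here, the glycolytic enzyme Aldoc among them. Of these, 8 were higher (32%) and 7 lower (28%), beside 24.1% and 24.7% of all genes. The median was -0.03 against 0.01 over all genes, and 0.18 without Control replicate 3. Ndrg1 (1.60), the collagen hydroxylase P4ha1 (1.34) and the peptide hormone Adm (1.13) rose. Aldoc fell most, by 2.31 (SE 0.14), Bnip3, a mitophagy receptor, by 2.11 (SE 0.23) and Hif1a itself by 1.07 (SE 0.08). Vegfa, a blood vessel growth factor, had 182, 212 and 219 CPM in Control and 222, 214 and 237 CPM in Hypoxia+rSRGN, and its change of 0.13 had a 95% interval of -0.03 to 0.30.

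Chaperones held the largest rises of all the lists. Of 26 genes driven by HSF1, 21 were higher and 0 lower, against 24.1% of all genes higher, with a median of 0.97. Hspa1a, an inducible HSP70, had 3.06, 3.12 and 2.37 CPM in Control and 4547, 4868 and 4617 CPM in Hypoxia+rSRGN (log2 fold change 10.68, SE 0.13, adjusted p = 7.0e-24). Hspa1b rose by 9.77 (SE 0.13). The coding sequences of these HSP70 genes are nearly identical, and a nearby pseudogene, Gm8696, had 0 counts in the Control libraries and 22.04, 20.7 and 19.3 CPM in Hypoxia+rSRGN, so the split of reads among them is uncertain. Hsph1, an HSP110 that exchanges nucleotide on HSP70, rose by 4.14 (SE 0.10), and Dnajb1, an HSP40 that loads its clients, by 4.04 (SE 0.09). The constitutive Hspa8 was higher by 1.12 (SE 0.07). Hspa4 (0.08), Fkbp4 (0.04) and Hsf2 (-0.03) were not called.

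HSF1 binds repeats of the letters GAA in alternating direction. The letters TTCNNGAA, which read the same on both strands, were searched in the 250 bases before each RefSeq start of transcription (GRCm38.p6). They were in 4 of the 20 chaperone genes with such a window (20%) and in 8.11% of 27025 genes with one. A longer heat shock element, with 1 more alternating unit, searched on both strands and overlapping the shorter one, was in 2 of the 20 and in 0.514% of all. Both of those genes, Hspe1 and Hspd1, share a single stretch at chr1:55088034-55088101, read in opposite directions. They encode the chaperonin pair HSP10 and HSP60 of the mitochondrial matrix, which rose by 2.72 (SE 0.08) and 1.89 (SE 0.08). The sequences below show that shared stretch and the matches before Hsph1 (chr5:149636337-149636394, minus strand) and Dnajb4 (chr3:152193846-152193884, minus strand, an HSP40 that rose by 1.70), with the letters TTCNNGAA in capitals.
Hspe1: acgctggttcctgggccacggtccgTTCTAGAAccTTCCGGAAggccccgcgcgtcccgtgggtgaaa
Hspd1: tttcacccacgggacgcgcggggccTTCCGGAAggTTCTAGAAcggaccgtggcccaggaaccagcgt
Hsph1: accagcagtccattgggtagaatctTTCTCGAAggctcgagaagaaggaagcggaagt
Dnajb4: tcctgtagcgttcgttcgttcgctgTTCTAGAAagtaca
A match is a description of the letters in this window and not a measurement of binding. The short letters were added after the longer element had matched 2 genes, and the motifs named here were all chosen with results known. The list was made of genes known as driven by HSF1, so its higher share is not an independent result.

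The integrated stress response stayed up as well. Of 27 genes 23 were higher and 1 lower, with a median of 1.33. Atf3, a stress-induced transcription factor, had 8.36, 11.2 and 11.1 CPM in Control and 493, 454 and 478 CPM in Hypoxia+rSRGN (log2 fold change 5.54, SE 0.11). Gdf15, a secreted stress hormone, rose by 2.53 (SE 0.13), Chac1, which degrades glutathione, by 2.44 (SE 0.09), Ddit3, the factor CHOP, by 1.85 (SE 0.11) and Asns, asparagine synthetase, by 1.33 (SE 0.07). The exception was the lipoprotein receptor Vldlr (-1.08, SE 0.10). Of 20 cytosolic tRNA synthetases, 5 were higher (25%, beside 24.1% of all genes) and 12 had an interval inside 1.5-fold. In the endoplasmic reticulum 12 of 22 unfolded protein response genes were higher, none by more than the 1.18 of Creld2, and the central chaperone Hspa5 rose by 0.73 (SE 0.08).

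ATF4 with its partner CHOP binds a composite element, searched here as TGATGNAA on both strands of the same 250 bases. It was in 8 of 25 genes of the list with a window (32%) and in 3.91% of all 27025 genes. Many members of the list are known as targets of ATF4, so the higher share is not an independent result. Of these 8 genes 7 were higher and Vldlr was lower. Asns and Pycr1 held the letters in the direction written above, and Slc7a11 held them in both directions. The stretches before the genes Atf3 (chr1:191183411-191183468, minus strand), Chac1 (chr2:119351024-119351081, plus strand), Nupr1 (chr7:126625548-126625605, minus strand, a small stress protein that rose by 1.90) and the lower gene Vldlr (chr19:27216795-27216852, plus strand) show the shared letters in capitals, in every one of the 4 as the reverse complement.
Atf3: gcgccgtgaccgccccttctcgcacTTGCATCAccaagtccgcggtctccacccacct
Chac1: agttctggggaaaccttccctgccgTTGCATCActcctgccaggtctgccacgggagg
Nupr1: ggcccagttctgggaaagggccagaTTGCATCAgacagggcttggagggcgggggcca
Vldlr: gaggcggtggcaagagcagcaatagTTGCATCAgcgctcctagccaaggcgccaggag

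Ribosomal protein genes were higher as a list, and ribosome biogenesis genes were not. All 25 cytosolic ribosomal protein genes were higher, within a narrow band of 0.78 to 1.40 and a median of 1.07. These genes have many processed pseudogenes, and how multi-mapped reads were treated can change their level. Of 24 ribosome biogenesis genes 5 were higher (20.8%) and 4 lower (16.7%), shares under the 24.1% and 24.7% of all genes, with a median of 0.13. The RNA polymerase I subunits Polr1a (-0.84) and Polr1b (-0.95) were among the lower ones, and Npm1 (1.08) and Gar1 (0.94) led the higher ones.

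Many genes of lipid synthesis and DNA replication were higher, and mitotic genes stood nearer to Control. Of 25 genes of cholesterol synthesis and uptake 16 were higher and 0 lower, with a median of 0.79. Hmgcs1, an early enzyme of the pathway, was not called (-0.02, 95% interval -0.20 to 0.16). The letters TCACNCCAC of the sterol regulatory element, searched on both strands, were in 1 of 17 windows of this list (5.88%), that of Hmgcs1, and in 1.22% of all genes. Of 11 fatty acid synthesis genes 7 were higher and 1 lower. Of 29 DNA replication genes 17 were higher, led by Mcm10 (1.32). Of 25 mitotic genes 6 were higher (24%, beside 24.1% of all genes), with a median of 0.40 and 13 intervals inside the 1.5-fold limit. Mki67, a marker of cycling cells, read 99.0, 93.8 and 108 CPM in Control and 120.3, 131 and 115 CPM in Hypoxia+rSRGN and was not called (0.29).

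Genes of cell death and cell cycle arrest were followed in separate lists. In the p53 and CDK inhibitor list 7 of 13 were higher and 1 lower, with Cdkn1a, p21, at 0.95 and Cdkn2a at 1.92. In the BCL2 family 5 of 14 were higher (35.7%) and 3 lower (21.4%), beside 24.1% and 24.7% of all genes. The BH3-only genes were themselves divided, with Pmaip1 (1.92) and Bbc3 (0.98) higher and Bik (-3.51), Bmf (-1.56) and Bcl2l11 (-1.54) lower. Of 25 autophagy and lysosome genes 13 were higher (52%) and 4 lower (16%), beside the same 24.1% and 24.7% of all genes. Hexa (1.52) and Lamp1 (0.97) were among the higher ones, and Tfeb, a master factor of lysosome genes, was lower (-1.41).

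**Figure D3:**
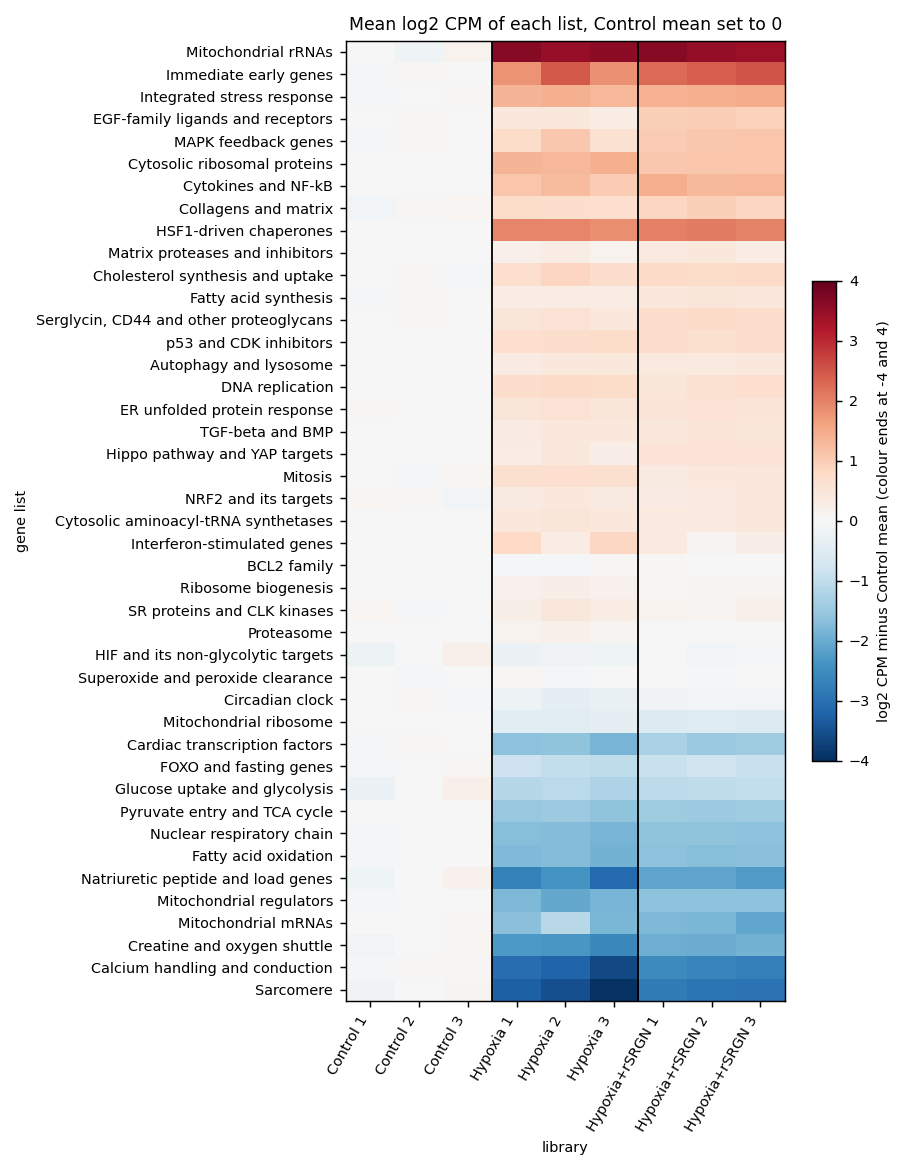
Mean log2 CPM of the tested members of 43 gene lists (rows) in each of 9 libraries (columns), with the Control mean of each list set to 0, blue for lower and red for higher. The sarcomere and calcium rows are blue in both hypoxic groups and lighter in Hypoxia+rSRGN than in Hypoxia.

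Early signalling genes rose strongly and some rose further with the protein. Of 23 immediate early genes 20 were higher than in Control and 0 lower, with a median of 2.31 (1.94 in Hypoxia). Fosb rose by 6.14 (SE 0.32), Egr1 by 3.63 (SE 0.14) and Fos by 2.80 (SE 0.16). Egr3, a zinc finger factor of growth factor signalling, had 2.79, 2.84 and 2.08 CPM in Control, 37.5, 80.3 and 34.1 CPM in Hypoxia and 84.6, 89.9 and 96.3 CPM in Hypoxia+rSRGN. The orphan nuclear receptor Nr4a3 went from 1.35, 1.63 and 2.13 CPM in Control to 28.6, 55.4 and 50.02 CPM in Hypoxia+rSRGN (log2 fold change 4.72, SE 0.40), with 6.88, 23.2 and 5.21 CPM in Hypoxia. Against Hypoxia 3 genes of the list were called higher, Nr4a3 (1.94, SE 0.32, adjusted p = 4.1e-04), Nr4a2 (0.90, SE 0.23, adjusted p = 0.0097) and Egr3 (0.83, SE 0.19, adjusted p = 0.0048), which is 3 of 23 beside 2.27% of all genes. Hypoxia replicate 2 was the highest Hypoxia library in each of the 3, and for Nr4a2 its 22.3 CPM lay above the 18.7 CPM of Hypoxia+rSRGN replicate 1. The cAMP response element, a palindrome bound by CREB and searched in the same 250 bases, was in 2 of 17 genes of the list with a window (11.8%), Maff and the uncalled Btg2, and in 1.77% of all genes. Arc, a cytoskeletal immediate early gene best known from neurons and not in the list, rose by 7.29 over Control (SE 0.20) and by 1.12 over Hypoxia (SE 0.13).

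Feedback genes of the MAP kinase pathway, which growth factors switch on, were higher in 11 of 16 cases (68.8%, beside 24.1% of all genes). Dusp6, a phosphatase for ERK, rose by 2.38 (SE 0.09). Dusp5, a nuclear ERK phosphatase, had 16.8, 15.9 and 15.9 CPM in Control, 27.5, 41.0 and 26.5 CPM in Hypoxia and 46.4, 49.5 and 50.3 CPM in Hypoxia+rSRGN, with no overlap among the 3 groups. Dusp5 (0.62, SE 0.12) and Dusp2 (1.38, SE 0.44) were the 2 members of 16 called higher against Hypoxia, beside 2.27% of all genes. Spry1, Spry4, Spred1 and Spred2 were not called against Control.

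In the EGF family, ligands were higher and most receptors lower. Of its 11 genes 8 were higher (72.7%) and 3 lower (27.3%) than in Control, beside 24.1% and 24.7% of all genes. Ereg, epiregulin, had 53.7, 42.5 and 39.5 CPM in Control, 135, 174 and 125 CPM in Hypoxia and 269, 301 and 239.8 CPM in Hypoxia+rSRGN, so that the 3 groups did not overlap. It rose by 2.58 over Control (SE 0.12, adjusted p = 2.7e-14) and by 0.91 over Hypoxia (SE 0.11, adjusted p = 4.7e-05). Hbegf, heparin-binding EGF, rose by 2.04 (SE 0.14) and Errfi1, an inhibitor of the receptors, by 3.68 (SE 0.17). Tgfa, transforming growth factor alpha, was not called in Hypoxia, with 13.4, 15.8 and 13.4 CPM in Control and 15.6, 14.04 and 10.9 CPM there, and higher in Hypoxia+rSRGN with 22.6, 22.02 and 20.3 CPM (0.61 over Control, SE 0.12). The receptor Egfr rose by 1.22, whereas Erbb4, the neuregulin receptor of myocytes, fell by 2.68, Erbb3 by 1.71 and Erbb2 by 1.27. Against Hypoxia 6 of the 11 were called higher, beside 2.27% of all genes. These were Btc, Ereg, Errfi1, Tgfa, Erbb4 and Hbegf, with changes from 0.60 to 1.04. Without Hypoxia replicate 3 there were 3 such calls.

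**Figure D4:**
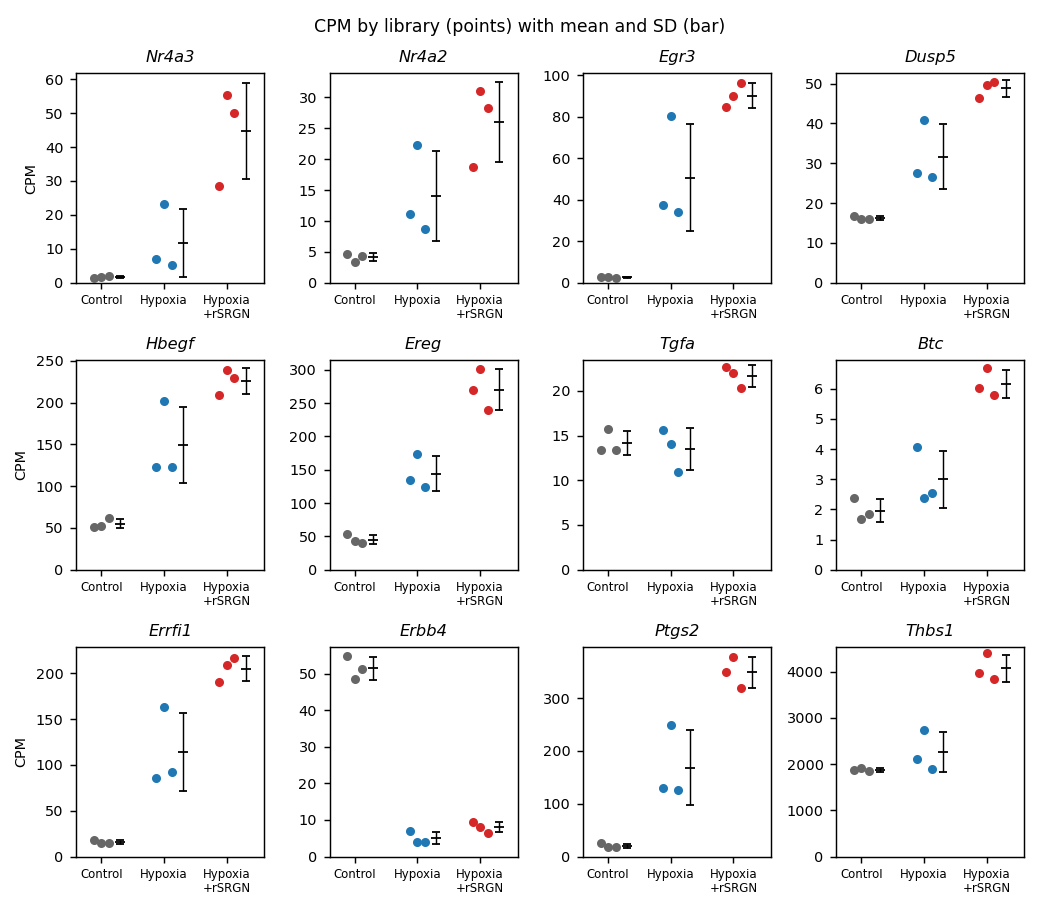
CPM after scaling (y axes, starting at 0) in each of 9 libraries (points, by group on the x axis) for 12 genes of signalling and matrix, with the mean and SD of each group as a bar. Apart from Erbb4, which is highest in Control, the Hypoxia+rSRGN libraries have the highest group mean, and Hypoxia replicate 2 is the highest of its group in most panels.

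Matrix genes were higher, and this list includes the surroundings in which serglycin acts. Of 23 genes for collagens and other matrix proteins 19 were higher and 0 lower, with a median of 1.00. Tnc, tenascin C, had 86.0, 99.3 and 97.4 CPM in Control and 239.98, 271 and 248 CPM in Hypoxia+rSRGN (log2 fold change 1.42, SE 0.10). Col1a1, the main fibrillar collagen chain, rose by 1.24 (SE 0.09) and Fn1, fibronectin, by 1.05 (SE 0.08). Thbs1, thrombospondin 1, had 1863, 1922 and 1842 CPM in Control, 2119, 2741 and 1900 CPM in Hypoxia and 3963, 4402 and 3845 CPM in Hypoxia+rSRGN, 1.12 above Control (SE 0.10) and 0.85 above Hypoxia (SE 0.10, adjusted p = 3.8e-05). Every Hypoxia+rSRGN library of Thbs1 lay above every other library. Col6a3 was called higher against Hypoxia (0.66) but not against Control (0.13, 95% interval -0.07 to 0.33). Of the fibroblast markers given above, 7 of 10 were higher in the same libraries.

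Among proteoglycans and their partners 10 of 17 tested genes were higher (58.8%) and 2 lower (11.8%), beside 24.1% and 24.7% of all genes. Cd44, the serglycin receptor, had 116, 114 and 101 CPM in Control, 228, 280 and 232 CPM in Hypoxia and 337, 356 and 334 CPM in Hypoxia+rSRGN, with no overlap among the 3 groups. It rose by 1.64 over Control (SE 0.08, adjusted p = 1.2e-13), while its change of 0.47 over Hypoxia lay under the 1.5-fold limit (SE 0.08, adjusted p = 5.5e-04). Has1, a hyaluronan synthase, rose by 3.52 over Control (SE 0.20) and by 0.80 over Hypoxia. Bgn, biglycan, rose by 1.56 (SE 0.07) and Dcn, decorin, by 1.32 (SE 0.07). Vcan, versican, was lower, with 452, 447 and 429.7 CPM in Control, 99.0, 99.7 and 82.3 CPM in Hypoxia and 153, 175 and 142 CPM in Hypoxia+rSRGN (-1.50 against Control, SE 0.09, and 0.74 against Hypoxia, SE 0.09). Of 11 matrix proteases and inhibitors tested 6 were higher, such as Timp1 (1.59), and 1 lower, Mmp12 (-3.68), a protease of macrophages.

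In the TGF-beta and BMP list 9 of 19 genes were higher (47.4%) and 2 lower (10.5%), beside 24.1% and 24.7% of all genes. Bmp2, a ligand, rose by 2.94 (SE 0.16). Id1, a target of BMP signals, had 33.5, 32.6 and 30.1 CPM in Control, 18.0, 13.4 and 23.6 CPM in Hypoxia and 11.2, 11.9 and 12.3 CPM in Hypoxia+rSRGN, a fall of 1.45 from Control (SE 0.14), and was lower than in Hypoxia by a log2 fold change of -0.64 (SE 0.15). Of 15 YAP pathway genes 7 were higher (46.7%) and 1 lower (6.67%), beside 24.1% and 24.7% of all genes. The median was 0.40, inside the 1.5-fold limit. Ccn2, connective tissue growth factor, rose by 1.63 and Ccn1 by 1.29, and Ankrd1, which myocytes express most, was lower (-1.56).

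Inflammatory genes were higher, 15 of 23 tested, and 0 were lower. Ptgs2, the inducible cyclooxygenase COX-2, had 25.1, 18.5 and 17.2 CPM in Control, 131, 249.7 and 126 CPM in Hypoxia and 349, 379 and 319.7 CPM in Hypoxia+rSRGN, with no overlap among the groups. It rose by 4.11 over Control (SE 0.20, adjusted p = 4.5e-14) and by 1.05 over Hypoxia (SE 0.17, adjusted p = 3.6e-04). Ptgs2 was the 1 member of the list called against Hypoxia, beside 3.13% of all genes. Nfkbiz, an NF-kB cofactor, rose by 3.34, the chemokine Cxcl1 by 2.55 and Il6 by 2.45. Of 22 interferon-stimulated genes 7 were higher (31.8%, beside 24.1% of all genes) and 1 lower than in Control. Bst2 (1.55) and B2m (1.65) were among the higher ones. The list median against Control was 0.28, beside 0.77 in Hypoxia. Between the hypoxic groups it was -0.39, with 10 of 22 genes at an unadjusted p under 0.05. Ifit3, an antiviral protein, was the 1 member called lower than in Hypoxia (-0.64, SE 0.16), and its call against Control was lost without Hypoxia+rSRGN replicate 1, where its change was 0.51.

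The proteasome list stayed close to Control. Of 27 proteasome genes 0 were called by edgeR and 0 by DESeq2, 18 had an unadjusted p under 0.05, and 25 had a 95% interval inside 1.5-fold, with changes from -0.50 (Psmd1) to 0.54 (Psmd4). Psmb5, a catalytic subunit, had 85.9, 96.7 and 87.8 CPM in Control and 70.4, 73.9 and 69.0 CPM in Hypoxia+rSRGN (-0.34, SE 0.08). Without a limit on fold change its difference passed the test (adjusted p = 4.3e-04). In the next lists more members than not lay inside the limit. Of 15 splicing factors and their CLK kinases 10 did so, with 3 higher (20%, beside 24.1% of all genes) and 1 lower. Of 18 genes of the antioxidant factor NRF2, 6 were higher (33.3%) and 10 inside the limit, with Hmox1, heme oxygenase, at 1.64 (SE 0.10). The next lists also had a median near 0, and their shares stand beside 24.1% higher and 24.7% lower of all genes. Among 15 genes that clear superoxide and peroxide 4 were higher (26.7%) and 3 lower (20%), Sod2 of the mitochondrial matrix by 1.65 on the log2 scale. Of 16 clock genes 4 were higher (25%), Nfil3 (2.504) and Arntl (2.21) in front, and 6 lower (37.5%), such as Dbp (-2.36).

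In the direct comparison of the hypoxic groups, muscle lists were among those that lay nearer to Control with the protein. Of the 25 sarcomere genes 18 were called higher in Hypoxia+rSRGN than in Hypoxia and 0 lower, beside 2.27% higher over all genes, with a median of 0.73 against -0.03 over all genes. For calcium handling and conduction 14 of 22 were called higher and 0 lower, with a median of 0.72. Slc2a4 was higher by 1.01 (SE 0.11), Pln by 0.90 (SE 0.11) and Myh6 by 0.76 (SE 0.15, adjusted p = 0.0014). For Myh6 the 1679, 1454 and 904 CPM of Hypoxia lay below all Hypoxia+rSRGN libraries, which themselves lay far below Control. In other muscle lists 4 of 16 cardiac transcription factors, 4 of 8 creatine shuttle genes and 2 of 7 load genes were called higher. Hypoxia replicate 3 had the lowest muscle gene levels of all libraries, and without it 10 sarcomere and 6 calcium genes were called. Asked for a change significantly beyond 1.5-fold, the test called none of the genes in either list.

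The energy lists gave the following calls against Hypoxia, where 2.27% of all genes were called higher and 0.859% lower. Differences between lists were not tested. Of 13 mitochondrial regulators 4 were called higher than in Hypoxia and 0 lower, namely Ppargc1a (0.67, SE 0.13), Ppargc1b and Esrrg (both 0.60, SE 0.19, just past the fold limit) and the sparsely counted Esrrb, which had at most 0.232 CPM in Hypoxia and 0.894, 0.385 and 0.687 CPM in Hypoxia+rSRGN. The median of that list was -0.02, and all 4 genes stayed lower than in Control. In the nuclear respiratory chain 2 of 26 genes were called higher than in Hypoxia, the muscle forms Cox6a2 and Cox8b, with a median of 0.08. In fatty acid oxidation 2 of 20 were called higher, Cd36 and Acsl1, and in the citric acid cycle list 0 of 17 by edgeR, with 2 at an unadjusted p under 0.05. For chaperones, the integrated stress response, the unfolded protein response, cholesterol synthesis and ribosomal proteins edgeR called 0 members in either direction, with medians of 0.11, -0.04, -0.04, -0.04 and -0.25. An unadjusted p under 0.05 was found for 13 of 26, 8 of 27, 12 of 22, 11 of 25 and 23 of 25 of them. A missed threshold does not show that the groups were alike, and Hspa1b (0.47, SE 0.09) and Hspa1a (0.34, SE 0.08) had adjusted p of 8.5e-04 and 0.0077 below the fold limit. Of 25 mitotic genes 2 were called lower, Cdc20 (-0.63) and Aurka (-0.61), beside 0.859% of all genes, with a median of -0.30 and 20 at an unadjusted p under 0.05. Cdc20 had 32.5, 29.7 and 32.1 CPM in Control, 58.2, 59.2 and 53.7 CPM in Hypoxia and 31.5, 37.9 and 41.0 CPM in Hypoxia+rSRGN. Both genes were called above Control in Hypoxia and not in Hypoxia+rSRGN.

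**Figure D5:**
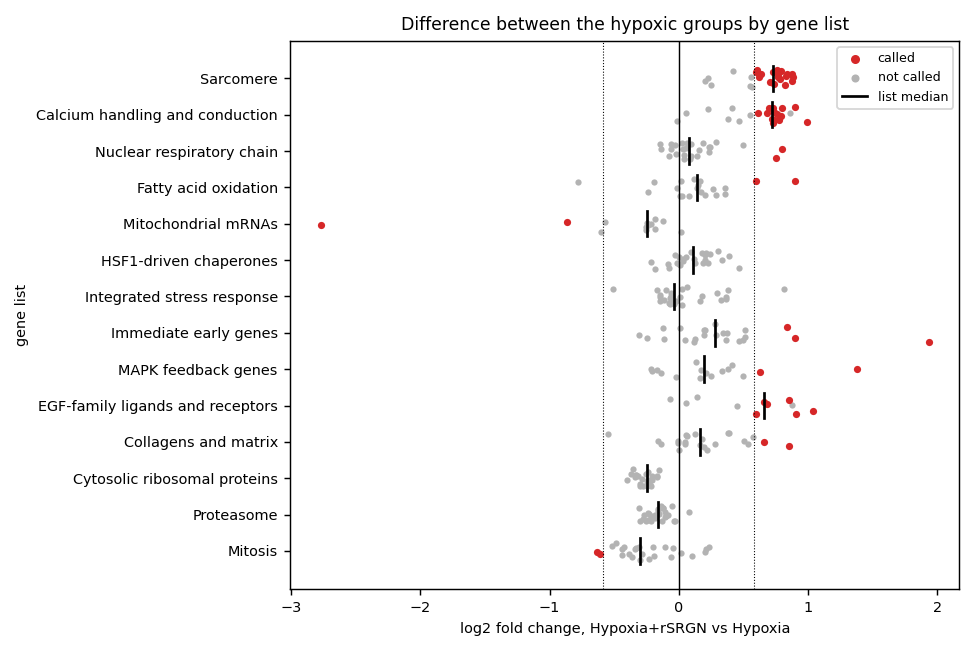
Log2 fold change of Hypoxia+rSRGN against Hypoxia (x axis) for the tested genes of 14 lists (y axis), red where called, grey where not, with black bars for list medians and dotted lines at 1.5-fold. Red points gather to the right in the sarcomere, calcium and EGF lists, while the chaperone, ribosomal protein and proteasome lists hold none.

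Outside the lists, some genes fell by more than any sarcomere gene. Among genes with a gene name and at least 5 CPM on average, the farthest fall was that of the orphan receptor Gpr22 (-5.74, SE 0.25), which overlaps Cog5 (-1.19), followed by Cdh20, a cadherin (-5.56, SE 0.23), and Irx3, a factor of the conduction system (-5.51, SE 0.13). Irx3 had 116, 145 and 130.35 CPM in Control and 2.44, 3.28 and 2.80 CPM in Hypoxia+rSRGN. Lrrc4b fell by 4.96, Nr0b2, a repressor of nuclear receptors, by 4.70 and Aqp4, a water channel, by 4.61. Among the rises, Mc1r had at most 0.27 CPM in Control and 12.2, 13.2 and 11.5 CPM in Hypoxia+rSRGN, and the microRNA locus Mir7688 at most 0.18 CPM and 21.3, 30.0 and 22.1 CPM. Fndc8, which overlaps Nle1 (1.18) on the other strand, went from at most 0.316 CPM to 10.4, 15.9 and 10.7 CPM. Several unnamed predicted genes rose further than these and were left out by the naming rule.

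The rise of Cx3cr1 went against the rest of the macrophage list. It had 0.135, 0.0452 and 0.676 CPM in Control and 122, 118 and 107 CPM in Hypoxia+rSRGN (log2 fold change 8.67, SE 0.28). In the annotation of the count table this gene spans chr9:119901616-120069879 on the minus strand (mm10) and overlaps Csrnp1 and Xirp1 on the same strand and Wdr48, Ttc21a and others. Csrnp1 was higher by 1.97, Xirp1 lower by 4.71 and Wdr48 near Control (-0.11). The counting used no strand information, so reads of overlapping transcripts cannot be assigned with certainty and the value of Cx3cr1 is uncertain.

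Among genes called in both tests, with a gene name, a mean level of 5 CPM or more in the Control and Hypoxia+rSRGN libraries and no overlap of those groups, the 5 largest differences from Hypoxia in each direction included Nr4a3 and mt-Co2, described above, and the genes that follow. Chst12, a sulfotransferase that modifies chondroitin chains, had 17.4, 18.4 and 16.8 CPM in Control, 14.4, 17.3 and 19.9 CPM in Hypoxia and 8.52, 7.03 and 9.40 CPM in Hypoxia+rSRGN. Its Hypoxia+rSRGN libraries lay below all others, by a log2 fold change of -1.08 from Control (SE 0.14) and -1.05 from Hypoxia (SE 0.14, adjusted p = 6.0e-05). Zfp788 (-0.84 against Hypoxia), the kinetochore gene Itgb3bp (-0.80, overlapping Pgm1 and Efcab7) and the pseudogene Ndufa12-ps (-0.82) followed, and the last was not called against Control without Control replicate 3 (adjusted p = 0.051). In the other direction, the immune receptor Lilr4b (2.57), Paqr9 (1.66), the haematopoietic factor Bcl11a (1.57) and Nmrk2, a nicotinamide riboside kinase of muscle (1.55), were higher than in Hypoxia and still lower than in Control. For Lilr4b, Hypoxia+rSRGN replicate 2 with 0.289 CPM lay below the 0.462 CPM of Hypoxia replicate 2. Nmrk2 had 17.7, 20.8 and 29.5 CPM in Control, 1.24, 1.56 and 0.927 CPM in Hypoxia and 4.23, 3.23 and 3.54 CPM in Hypoxia+rSRGN, and it overlaps the antisense gene Atcayos (-3.73).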

How the data were processed

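Poly(A)-enriched RNA of 9 libraries was sequenced on an Illumina NovaSeq instrument. The authors deposited whole-number counts of fragments per gene, not normalized, made with HISAT2 on mm10 (version not given in the sources used here) and, per the file headers, featureCounts 2.0.1 on exons of GENCODE mouse release 25 in paired mode without a strand setting. The paper that cites these data describes other samples and was not used for the design.

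Counts of 55401 genes were filtered with filterByExpr (16762 kept), scaled by TMM and fitted with edgeR 4.0.16 (R 4.3.3, limma 3.58.1) by the quasi-likelihood test, with 1 mean per group over all 9 libraries and Benjamini-Hochberg adjustment over all tested genes. CPM use TMM-scaled library sizes. Called means adjusted p below 0.05 and a change of at least 1.5-fold. Log2 CPM for list levels used a prior count of 2. The 52 gene lists (43 pathway, 9 marker, 894 entries, all in the table) held 876 symbols, of which 849 were tested. The other 27 had at most 19 counts in any library. The members and lists were chosen with earlier results of these data known. Named genes were the 8 largest rises and 8 largest falls without overlap of libraries at a mean of 5 CPM or more, up to 2 called genes in each direction per list, the strongest difference between the hypoxic groups per list, 5 genes in each direction called in both tests, and Srgn and Cd44. Further list members, Rn7sk and Gm8696 were named after their values were seen.

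Within groups, library pairs differed by more than counting noise (chi-square per degree of freedom 3.63 to 13.1), so none was counted as a duplicate. On simulated counts for the 16762 genes of the Hypoxia+rSRGN against Control test, 147 of 200 genes changed 2-fold were called (73.5%) and 3 unchanged genes. In the simulation only those 200 genes differed between groups, beside 8183 called in the data, so its rates need not hold for the real test. Promoter windows came from RefSeq (GRCm38.p6). Figures used matplotlib 3.10.9. Alternatives were DESeq2 1.42.0, other scalings, filters, thresholds and sample sets. No amino acid sequences were used here. Some results are not reported here.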

Additional observations from a re-analysis of the deposited data

How the results depend on the processing

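The number of genes called in Hypoxia+rSRGN against Control stayed between 6199 and 11503 over all alternatives, against 8183, within 1.5 times of it. Leaving out 1 library at a time gave 8028 to 8184. Only the test of Hypoxia+rSRGN against Hypoxia moved by more than that from its 525 calls. It gave 899 with an unadjusted p, 2790 without a limit on fold change and 0 when the change had to lie significantly beyond 1.5-fold (smallest adjusted p 0.079), and between 321 and 699 when 1 library was left out, the lowest without Hypoxia replicate 3. With the replicate block the counts were 8096, 8550 and 495, in the order of the report. The numbers did not pair the libraries, since deviations of same-numbered Control and Hypoxia+rSRGN libraries correlated at -0.020 to -0.010.

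Of 748 alternative values of 50 list medians, 78 moved by more than a limit set for each list. The limit was the square root of the summed Control and Hypoxia+rSRGN variances of the list's mean log2 CPM. Over all values 7 shifted by over 0.2 on the log2 scale, and 2 of these stayed within that limit. They were the HIF median (0.18 without Control replicate 3) and that of the endothelial markers (-0.87 without Control replicate 1). None of the medians beyond 1.5-fold changed sign, and 5 values of medians inside it did. Scaled by library size alone the medians were -1.55 for Nuclear respiratory chain, -1.65 for Mitochondrial regulators, -0.47 for Mitochondrial ribosome, -1.32 for citric acid cycle, 1.02 for chaperones, 0.71 for unfolded protein response, 0.38 for tRNA synthetases, 1.27 for EGF family, -0.063 for superoxide clearance, 0.84 for Cholesterol synthesis and uptake, 0.82 for p53 and CDK inhibitors, 0.19 for BCL2 family, 0.18 for Ribosome biogenesis, 1.12 for ribosomal proteins, 0.10 for Proteasome, 0.72 for Autophagy and lysosome, 0.57 for TGF-beta and BMP and 0.45 for YAP targets. With genes of at least 1 count in all the medians were -1.64 for Nuclear respiratory chain, -1.74 for Mitochondrial regulators, -0.56 for Mitochondrial ribosome, -1.40 for citric acid cycle, 0.93 for chaperones, 0.29 for tRNA synthetases, 0.75 for Cholesterol synthesis and uptake, 0.73 for p53 and CDK inhibitors, 0.091 for Ribosome biogenesis, 1.03 for ribosomal proteins, 0.012 for Proteasome, 0.64 for Autophagy and lysosome, 0.48 for TGF-beta and BMP and 0.36 for YAP targets. With at least 10 counts in every library, which tests fewer genes, the medians were -1.17 for Mitochondrial regulators, -1.58 for Fatty acid oxidation, -1.23 for FOXO and fasting genes, -0.20 for superoxide clearance, 0.22 for BCL2 family and -1.51 for Macrophage markers. With only the groups compared the median was -0.50 for Mitochondrial ribosome. With equal totals the medians were -0.50 for Mitochondrial ribosome and 0.50 for TGF-beta and BMP. With 1 library left out the medians ran from -0.97 to -0.75 for Cardiac transcription factors, -1.64 to -1.60 for Nuclear respiratory chain, -1.77 to -1.59 for Mitochondrial regulators, -0.53 to -0.48 for Mitochondrial ribosome, -1.24 to -0.88 for FOXO and fasting genes, 0.61 to 0.70 for unfolded protein response, 0.29 to 0.35 for tRNA synthetases, 1.04 to 1.20 for MAPK feedback genes, 1.17 to 1.29 for EGF family, 0.74 to 0.82 for Cholesterol synthesis and uptake, 0.74 to 0.82 for p53 and CDK inhibitors, 0.013 to 0.069 for Proteasome, 0.62 to 0.71 for Autophagy and lysosome, 0.69 to 0.81 for proteoglycans, 0.85 to 0.96 for Matrix proteases and inhibitors, 0.49 to 0.57 for TGF-beta and BMP, 0.36 to 0.49 for YAP targets, 0.99 to 1.15 for Cytokines and NF-kB, -0.20 to -0.087 for Circadian clock, 0.60 to 0.70 for Fibroblast markers and -3.65 to -3.32 for Macrophage markers. The cause was not tested. For named genes, 15 alternative values lost the call against Control and 1 gained it, out of 2890, and none changed sign. Kdr (-0.62) lost it in 4 of them. The calls of lists against Hypoxia were recomputed after the data were seen. Depth limits the low genes, such as Srgn, and 3 libraries a group limit small differences.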
